A study of Mus musculus with 18 samples.

Results

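The left ventricle of mice labelled as lacking muscle LIM protein (MLP) was compared between 6 and 3 weeks of age, across 15778 genes. The members were the 3 KO libraries of 6 weeks and the 3 KO libraries of 3 weeks, 6 of the 18 libraries of the series, taken by the genotype and age of their labels. All hold RNA from the mid wall of the left ventricle, taken from males of the 129SVE strain, and KO stands for MLP KO, the knockout of MLP. The series also holds 3 WT libraries of the same strain and sex at each of 6 and 3 weeks, which were used as the same ages without the knockout, and 3 KO and 3 WT libraries of 10 weeks, which enter no comparison and serve in the shared estimate of the spread and in ranges over all libraries. The labels give no time of day, no litter and no statement that the libraries of a group come from separate animals, so p-values measure the spread between these samples, which may be technical.

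MLP, the product of Csrp3, is a LIM domain protein of striated muscle that sits at the Z-disc, where it takes part in anchoring the sarcomere and in sensing stretch. Mice without it develop dilated cardiomyopathy with wall thinning and raised foetal gene expression. The weeks after weaning are also the time when the mouse heart leaves its last phase of cell division. It then also moves from a growth to a maintenance matrix and takes on adult metabolism and rhythms. The WT libraries serve to give the changes between the same ages without the knockout.

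The 3 KO libraries of 6 weeks held 16778954 to 19123985 counts and those of 3 weeks 17243640 to 21397675 counts. Mitochondrially encoded genes took 9.51% ± 0.733 of the counts in KO at 6 weeks and 9.47% ± 1.67 in KO at 3 weeks (SD, n = 3 each). Csrp3 (ENSMUSG00000030470) was counted in every KO library, with 2483, 1822 and 1792 CPM at 6 weeks, against 1134, 2703 and 1510.1 CPM at 3 weeks. CPM, the level of a gene in a library, are counts over the TMM-corrected library size. WT libraries held 1230 to 1486 CPM of Csrp3 at 6 weeks and 951 to 1111 CPM at 3 weeks, so the gene was not lower in libraries labelled KO, and a count over the whole gene does not test a deletion of part of it. KO and WT below follow the labels. Nppa, the gene of atrial natriuretic peptide, stood at 1984 to 17428 CPM in the 9 KO libraries and at 192 to 467 CPM in the 9 WT libraries.

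One library of the comparison stood apart from its label. Replicate 3 of KO at 6 weeks held 118 CPM of Xist, the RNA that coats the inactive X chromosome, against 0.175 to 1.71 CPM in the other 17 libraries. It also held the Y-linked genes, with 23.5 CPM of Ddx3y and 34.7 CPM of Eif2s3y, below the 35.6 to 44.4 CPM and 49.8 to 53 CPM of the other 2 libraries of its group. The Y-linked gene Kdm5d was at 14.9 CPM there, above 10.8 and 12.1 CPM in those 2 libraries, and Uty was at 9.64 CPM, against 11.6 and 16.8 CPM. X-linked Kdm6a was at 22.9 CPM there, against 12.4 and 14 CPM in those 2 libraries. The same library held transcripts of fat and of atrial muscle: Adipoq, the gene of adiponectin, was at 11.1 CPM, against 0 and 0.0502 CPM in the other 2, and Myl4, the atrial essential light chain, at 436 CPM, against 4.12 and 6.45 CPM. Replicate 3 of KO at 3 weeks held 118 CPM of Myl4, against 1.71 and 5.27 CPM in the other libraries of 3 weeks, while its Xist was 0.468 CPM and its Adipoq 0 CPM. The part of these features in the results was not tested as a cause. Most list counts below are therefore also given without KO 6-week replicate 3, and the totals also without both replicates 3.

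**Figure D1:**
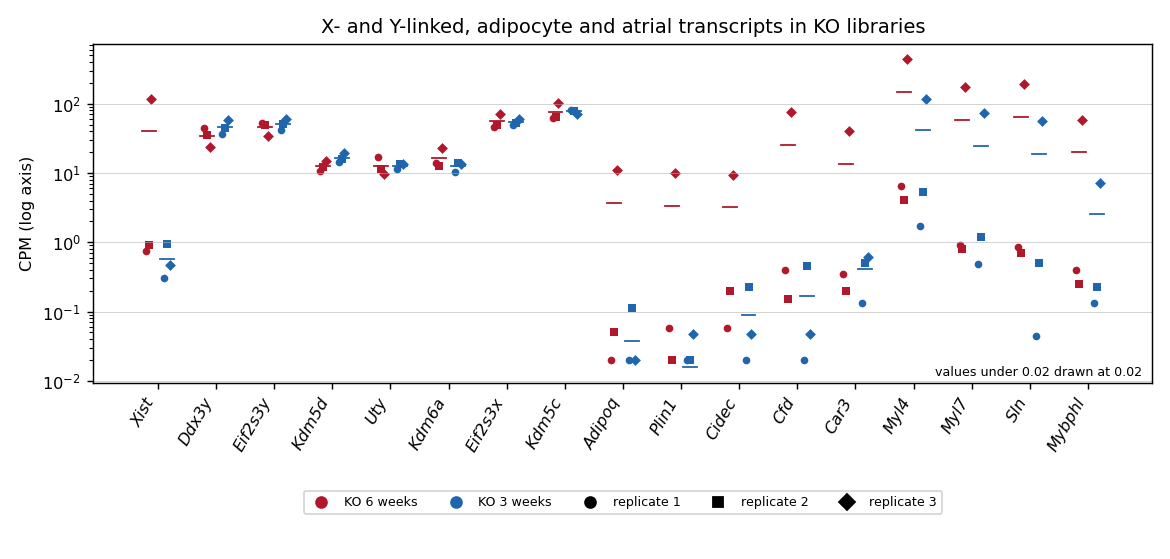
CPM (log axis) of X-linked, Y-linked, adipocyte and atrial genes in the 3 KO libraries of 6 weeks (left in each pair, red) and the 3 of 3 weeks (right, blue), with short lines at the group means. Replicate 3 of 6 weeks, the red diamond, is at 118 CPM of Xist and 11.1 CPM of Adipoq, far above every other point of those genes, while Ddx3y, Eif2s3y, Kdm5d and Uty are present in all 6 libraries.

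Markers of the working ventricle were high in all 6 libraries. The summed level of 10 cardiomyocyte markers was 92660 to 105000 CPM at 6 weeks and 106700 to 109400 CPM at 3 weeks. Fibroblast markers summed to 2680 to 3163 CPM at 6 weeks and 2229 to 2434 CPM at 3 weeks (13 genes), and endothelial markers to 1365 to 1660 CPM at 6 weeks and 1742 to 2145 CPM at 3 weeks (14 genes). In tissue RNA, fewer cells of a type and less RNA per cell cannot be told apart. The sets of sums did not overlap between the ages for any of these 3 lists, and 29.8% of all genes tested did not overlap either. Sums follow their most abundant members. Gsn, a fibroblast marker, had a mean of 1234.5 CPM at 6 weeks and 700 CPM at 3 weeks. The median log2 fold change of the fibroblast list was -0.036. That of the cardiomyocyte list was -0.11 and that of the endothelial list -0.30. The part of these cell types in the results below was not tested.

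Of the 15778 genes tested, 1829 changed in KO between the ages (11.6%; adjusted p under 0.05), 843 higher at 6 weeks (5.34%) and 986 lower (6.25%). Changes of over 2-fold were found for 593 of them (3.76%), 249 higher (1.58%) and 344 lower (2.18%). Without KO 6-week replicate 3, 1185 genes were called, 518 higher and 667 lower, and without both replicates 3, 819 were called, 335 higher and 484 lower. All 1829 kept their sign without KO 6-week replicate 3, and 26 moved by more than 1.5-fold. Among these were Hmmr, at -4.66 without it, Ckap2, at -4.71 without it, and Xist, whose log2 fold change was 0.55 without that library and 6.15 with it and which was not called without it (adjusted p = 0.68). With each of the 12 libraries of 3 and 6 weeks left out in turn, 773 genes kept their call throughout, 345 higher and 428 lower, and genes described below are of that kind unless stated. Of genes so described, 17 were not called without both replicates 3 (adjusted p = 0.0537 to 0.177): Agpat2, Bgn, C4b, Cd163, Cenpa, Clock, Dbh, Dnajb5, Gpam, Lyve1, Nr1d1, Pparg, Ryr3, Scn4b, Sgk1, Srf and Tnnt1. The first principal component of the 6 KO libraries held 42.6% of the variance and ran from 29.8 to 34.9 at 6 weeks and from -34.5 to -29.7 at 3 weeks.

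Over the same ages WT ventricle changed in 818 genes (5.18%), 464 higher (2.94%) and 354 lower (2.24%). The change itself differed between KO and WT in 251 genes (1.59%), 78 with a higher and 173 with a lower value in KO, of which 187 were also called in KO. With each of the 12 libraries left out in turn, 71 of the 251 kept that call. Counts of members whose change differed, given below, include calls that did not hold in this way. The WT count rests on single libraries, from 199 without WT 3-week replicate 2 to 1313 without WT 3-week replicate 3. Counts of calls in WT are therefore given below for description, and a change is said to differ from WT only by this test of the difference. Over all genes tested the median log2 fold change was -0.0054 in KO and 0.015 in WT, which is the level that the list medians below stand beside. List counts in KO stand beside the 5.34% of all genes called higher and the 6.25% called lower. Counts of members whose change differed stand beside 0.494% of all genes higher and 1.10% lower in KO.

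**Figure D2:**
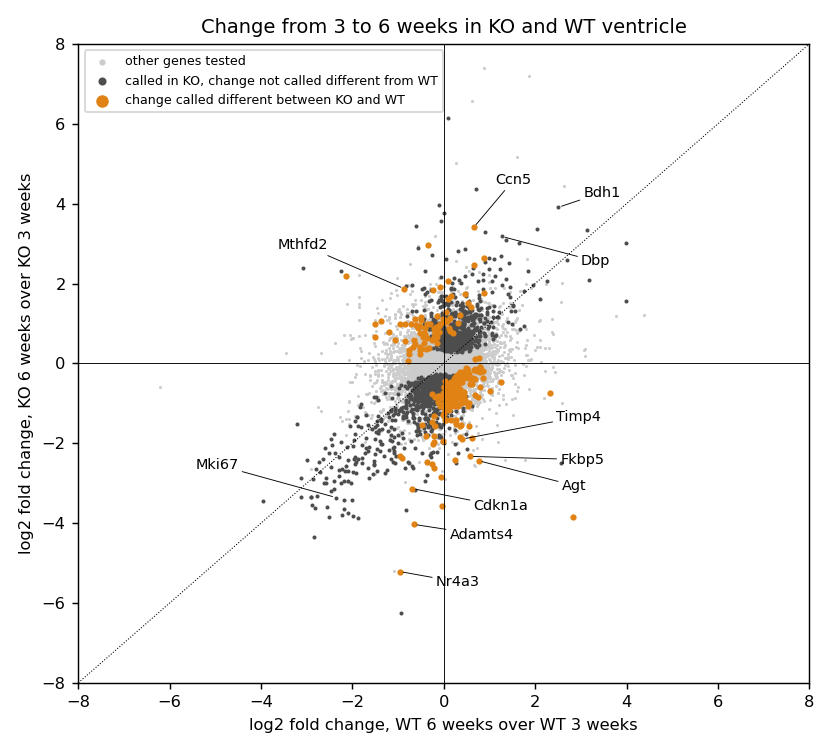
Log2 fold change of 6 over 3 weeks in KO (vertical axis) against that in WT (horizontal axis) for 15778 genes, with the dotted line where both are equal. Orange points are the 251 genes whose change was called different between KO and WT, and Nr4a3 at -5.21 in KO and Ccn5 at 3.41 in KO lie at the ends of that set among the genes labelled.

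Most genes of cell division fell at 6 weeks. Of 38 proliferation genes tested, 29 fell and 2 rose at 6 weeks, against 6.25% of all genes called lower, and the median log2 fold change was -1.83 (29 fell and 1 rose without KO 6-week replicate 3). Ccnb1, a mitotic cyclin, was at 0.115, 0.352 and 0.554 CPM at 6 weeks, against 7.88, 4.48 and 2.48 CPM at 3 weeks, a log2 fold change of -3.83 ± 0.50 (SE; adjusted p = 3.82e-05). Mki67, the gene of the Ki-67 antigen of cycling cells, was at 1.84, 3.37 and 3.93 CPM at 6 weeks, against 41.3, 32.6 and 20.4 CPM at 3 weeks (-3.36 ± 0.40, adjusted p = 9.09e-05). Every 6-week library was below every 3-week library for both genes, and at 3 weeks replicate 1 was the highest and replicate 3 the lowest.

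Foxm1, the transcription factor that drives mitotic genes, also fell, with 1.32, 1.21 and 0.942 CPM at 6 weeks and 11.8, 5.66 and 5.8 CPM at 3 weeks (-2.74 ± 0.35, adjusted p = 3.11e-05). Ccnb2, another mitotic cyclin, fell by 3.65 on the log2 scale. Genes outside the list were among the 15 largest decreases by the naming rule given under the processing: Kif2c, a mitotic kinesin, Melk and Pbk, mitotic kinases, and Pimreg stood at -3.86, -3.15, -3.61 and -3.74. Hmmr, Mxd3, Ckap2, Sapcd2 and Pif1 stood there too, at -3.80, -3.62, -3.55, -3.42 and -3.35, from low levels. Cenpa, the centromeric histone, went the other way, with 61.1, 53.2 and 58.3 CPM at 6 weeks and 37.6, 39.9 and 39.2 CPM at 3 weeks (0.56 ± 0.14, adjusted p = 0.00854). The other member that rose was Ccnd2, a G1 cyclin, at 0.39, which was not called with any one of 9 of the 12 libraries left out, KO 6-week replicates 1 and 3 and KO 3-week replicates 1 and 2 among them (highest adjusted p = 0.227). In WT, 21 of the 38 fell and none rose, with a median of -1.22, and the change differed between KO and WT for 2, Cdkn1a, an inhibitor of the cycle that is counted among the 29, and Mcm2, a replication licensing factor, whose difference call did not hold with every single library left out.

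The cell cycle genes homology region, TTTGAA, is a promoter letter string bound by a complex that keeps mitotic genes silent outside the cycle. It was searched on both strands in the RefSeq promoter windows of GRCm38.p6, from 250 bases before to 50 after a gene's start. Of the 29 members that fell, 24 had a window and 13 of these held it, as did Cenpa, the 1 risen member with a window, and none of the 5 members with a window that were not called, against 14.2% of tested genes with a window. A match describes letters and is not evidence of binding. The 150 bases before the start are shown for 3 such genes, in the gene's own direction, as examples of matches on either strand. Capitals mark TTTGAA, or TTCAAA where it lies on the other strand. Cdc20, an activator of the anaphase complex, is on the minus strand at chr4:118437344-118437493, Ube2c, its ubiquitin-conjugating partner, on the plus strand at chr2:164769779-164769928, and Cdk1, the mitotic kinase, on the minus strand at chr10:69352913-69353062.
Cdc20: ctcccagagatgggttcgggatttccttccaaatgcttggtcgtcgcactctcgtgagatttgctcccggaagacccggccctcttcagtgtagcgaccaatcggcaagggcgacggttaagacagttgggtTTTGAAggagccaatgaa
Ube2c: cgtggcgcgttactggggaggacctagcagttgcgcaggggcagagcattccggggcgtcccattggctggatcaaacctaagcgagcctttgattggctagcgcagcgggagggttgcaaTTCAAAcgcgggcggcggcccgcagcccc
Cdk1: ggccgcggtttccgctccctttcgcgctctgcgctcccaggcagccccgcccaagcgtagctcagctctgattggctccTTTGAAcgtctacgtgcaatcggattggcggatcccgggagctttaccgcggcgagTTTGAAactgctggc
These 3 genes fell by 2.77, 2.13 and 2.58 on the log2 scale in the order shown, and were chosen after their values were seen.

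Genes of foetal and neonatal growth fell beside them. Of 22 imprinted and neonatal growth genes, 6 fell and none rose (median -0.49; 4 fell without KO 6-week replicate 3). Igf2, the foetal growth factor, was at 30.7, 39.9 and 39.8 CPM at 6 weeks and 97.5, 65.4 and 91.6 CPM at 3 weeks (-1.20 ± 0.16, adjusted p = 4.38e-05), and its log2 fold change in WT was -1.17. Mest, a paternally expressed gene, had 6.39, 6.88 and 8.20 CPM at 6 weeks and 28.9, 15.1 and 24.4 CPM at 3 weeks (-1.67 ± 0.25, adjusted p = 0.000192). The 2 sets of values did not overlap for either gene. Plagl1, a transcription factor of the imprinted network, and Grb10, an adaptor that restrains insulin signalling, fell by 1.24 and 0.54 on the log2 scale.

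Of 22 tubulin isoforms and enzymes, 12 fell and none rose (median -0.73; 10 fell without KO 6-week replicate 3), and in WT 2 fell. The change differed between KO and WT for 2, both lower in KO. Tubb5, a beta-tubulin, had 108, 113 and 116 CPM at 6 weeks and 234, 216 and 182 CPM at 3 weeks (-0.91 ± 0.11, adjusted p = 2.39e-05). Tuba4a, an alpha-tubulin, had 421, 469 and 377 CPM at 6 weeks and 719, 830 and 657 CPM at 3 weeks (-0.80 ± 0.13, adjusted p = 0.000283), a change that differed from WT by -0.94 ± 0.18 (adjusted p = 0.00941). For both, all 6-week libraries lay below all 3-week libraries. Tuba1a and Tubb6 fell by 0.73 and 1.08 on the log2 scale.

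Stress genes of the cardiomyocyte held rises and falls. Of 25 cardiomyocyte genes of stress and foetal life, 5 rose and 2 fell (median 0.38; 4 rose and 2 fell without KO 6-week replicate 3), and none was called in WT. Of all genes, 5.34% were called higher and 6.25% lower, and the falls of the list were near that share. By the test of the difference 1 member differed, Fhl2. Nppa was at 13368, 7379.6 and 9359 CPM at 6 weeks, against 1984, 4091 and 2184 CPM at 3 weeks (1.87 ± 0.31, adjusted p = 0.00152). Myh7, the slow foetal myosin heavy chain, was at 5264, 3282 and 3380.2 CPM at 6 weeks, against 1551, 1798 and 1587 CPM at 3 weeks (1.27 ± 0.24, adjusted p = 0.00246). In both genes the lowest 6-week library stood above the highest 3-week library, and replicate 1 was the highest at 6 weeks. The replicates 3, which hold more atrial transcripts, were not the highest in Nppa at either age. The part of atrial tissue in the Nppa values was not tested.

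Ankrd1, a stretch-responsive titin-binding repressor, had 9319, 6592 and 6987 CPM at 6 weeks and 803, 3215 and 3686 CPM at 3 weeks (1.57 ± 0.45, adjusted p = 0.0386). Acta1, skeletal alpha-actin, had 10628, 8998 and 8529.5 CPM at 6 weeks and 3621, 5687 and 3421 CPM at 3 weeks (1.15 ± 0.28, adjusted p = 0.0138). Sprr1a, a small proline-rich protein of the stressed heart, had 5.47, 2.61 and 2.05 CPM at 6 weeks and 0.0438, 0.672 and 0.187 CPM at 3 weeks (3.55 ± 0.82, adjusted p = 0.0107). Calls of these 3 rested on single libraries: Ankrd1 was not called without KO 6-week replicate 1, 2 or 3, KO 3-week replicate 2 or any of 5 WT libraries (highest adjusted p = 0.122), Acta1 was not called without KO 6-week replicate 1 (adjusted p = 0.0586) or without KO 3-week replicate 1 (adjusted p = 0.0594) or without KO 3-week replicate 3 (adjusted p = 0.0657), and Sprr1a was not called without KO 3-week replicate 3 (adjusted p = 0.0581).

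Fhl2, a LIM protein that binds titin and other sarcomere proteins, fell, with 1283, 1126 and 957 CPM at 6 weeks and 1868, 2164 and 1896 CPM at 3 weeks (-0.82 ± 0.12, adjusted p = 0.000112). Its change differed from that of WT by -0.97 ± 0.17 (adjusted p = 0.00472). Tnnt1, slow skeletal troponin T, fell by 0.65 on the log2 scale. Nppb, the gene of brain natriuretic peptide, was not called, at 720.1, 542 and 833 CPM at 6 weeks and 365, 653 and 943 CPM at 3 weeks (0.09 ± 0.34, adjusted p = 0.907), nor was Myh6, the adult fast myosin heavy chain (-0.12 ± 0.13, adjusted p = 0.605). The last 2 genes were picked after their values were seen.

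Among 25 sarcomere and M-band genes 4 rose and none fell (median -0.012; the same counts without KO 6-week replicate 3), and 8 rose in WT. The change of 1 member was higher and of 1 lower in KO than in WT by the test of the difference. Tpm2, beta-tropomyosin, had 232, 183 and 209.8 CPM at 6 weeks and 99.3, 127 and 91.7 CPM at 3 weeks (0.98 ± 0.16, adjusted p = 0.000513), and this change differed from WT by 1.34 ± 0.24 (adjusted p = 0.00706). Myom2, an M-band protein of fast fibres, rose by 0.69 in KO and by 0.90 in WT on the log2 scale. Among 25 Z-disc, intermediate filament and small heat shock genes 6 rose and 2 fell (median 0.020; 5 rose and none fell without KO 6-week replicate 3). Tcap, the titin cap that partners MLP at the Z-disc, had 1725, 1972 and 1908 CPM at 6 weeks and 899, 479 and 805 CPM at 3 weeks (1.36 ± 0.20, adjusted p = 0.000295). Myot, the Z-disc protein myotilin, had 101, 68.7 and 85 CPM at 6 weeks and 23.7, 25.4 and 44.5 CPM at 3 weeks (1.45 ± 0.24, adjusted p = 0.00122). No 3-week value reached the lowest 6-week value in either gene, and Synm, the intermediate filament synemin, and Hspb8, a small heat shock protein, rose by 0.85 and 0.63 on the log2 scale.

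Membrane and contact genes held 4 rises and 2 falls among 28 ion channels and gap junctions (median 0.078; the same counts without KO 6-week replicate 3). Gja1, the ventricular gap junction protein connexin 43, had 711, 618 and 599 CPM at 6 weeks and 283, 396 and 258 CPM at 3 weeks (1.04 ± 0.16, adjusted p = 0.000183). Kcne1, the potassium channel subunit of the slow delayed rectifier, had 5.07, 7.03 and 6.87 CPM at 6 weeks and 45.0, 38.5 and 21.7 CPM at 3 weeks (-2.47 ± 0.27, adjusted p = 2.53e-05). Both separated the ages without overlap, and the change of Kcne1 differed from WT by -2.10 ± 0.36 (adjusted p = 0.00818). Kcnj14 and Scn4b, a potassium channel and a sodium channel beta subunit, rose by 2.47 and 2.61, and Kcna5, a delayed rectifier, fell by 1.57 on the log2 scale.

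Of 24 calcium handling genes 1 rose and 2 fell (median -0.15; none rose and 2 fell without KO 6-week replicate 3). Casq1, the skeletal calsequestrin, had 195, 225 and 191 CPM at 6 weeks and 344, 580.3 and 451 CPM at 3 weeks (-1.17 ± 0.19, adjusted p = 0.000664), with a log2 fold change of -1.15 in WT. Of 16 intercalated disc genes Dsp, the desmosomal protein desmoplakin, alone rose (0.67 ± 0.13, adjusted p = 0.00208), and none fell. Of 26 dystrophin complex and costamere genes 3 fell and none rose, led by Lamc1, the laminin gamma-1 chain (-0.70 ± 0.13, adjusted p = 0.0014). Without KO 6-week replicate 3 the same disc gene count was found, and the costamere list had 1 member higher and 2 lower.

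Glucocorticoid-responsive genes fell or were not called in KO at 6 weeks. All 18 had a negative log2 fold change, of which Per1 was positive without KO 6-week replicate 3 (0.056). Of the 18, 10 fell and none rose (median -1.05; 8 fell without KO 6-week replicate 3), while in WT 1 rose and none fell (median -0.086). These genes are induced by the hormone corticosterone through the glucocorticoid receptor in many tissues, though each has other inducers too. The change differed between KO and WT for 7 of the 18, all lower in KO, against 1.10% of all genes.

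Fkbp5, a chaperone that restrains the glucocorticoid receptor and is itself induced by it, had 12.2, 14.6 and 17.3 CPM at 6 weeks, against 82.3, 62.7 and 76.7 CPM at 3 weeks (-2.33 ± 0.20, adjusted p = 9.55e-07). In WT its log2 fold change was 0.57, and the difference between the changes was -2.90 ± 0.27 (adjusted p = 3.73e-05). Zbtb16, a transcription factor strongly induced by glucocorticoids, had 35.6, 37.5 and 34.1 CPM at 6 weeks, against 172, 143 and 260.3 CPM at 3 weeks (-2.42 ± 0.31, adjusted p = 0.000222). The KO libraries of 6 weeks were close to each other in both genes and lay far below those of 3 weeks, replicate 3 included.

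Cdkn1a, the cell cycle inhibitor p21 and also a p53 target, had 11.7, 12.3 and 20.4 CPM at 6 weeks, against 107, 113 and 169.7 CPM at 3 weeks (-3.14 ± 0.23, adjusted p = 5.49e-07; difference from WT -2.44 ± 0.30, adjusted p = 0.000889). The metallothionein Mt1 had 59.7, 55.4 and 58.0 CPM at 6 weeks, against 275, 198 and 150.4 CPM at 3 weeks (-1.85 ± 0.18, adjusted p = 3.40e-06). Metallothioneins bind zinc and other metals, and Mt2 fell in parallel, by 2.02 on the log2 scale. Hif3a, a hypoxia-inducible factor family member also induced by glucocorticoids, had 0.518, 0.402 and 0.332 CPM at 6 weeks, against 3.06, 1.96 and 3.97 CPM at 3 weeks (-2.84 ± 0.34, adjusted p = 2.10e-05). The difference from WT was called for Mt1, Mt2 and Hif3a as well, at -2.19, -1.78 and -2.77 on the log2 scale. The seventh was Klf15, a metabolic zinc finger factor named after its value was seen, with -0.25 ± 0.13 in KO (adjusted p = 0.263) and a difference of -0.74 ± 0.19 (adjusted p = 0.0494) that was not called without any one of the 12 libraries (highest adjusted p = 0.133).

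The 4 other members that fell were Pdk4, Sgk1, Tsc22d3 and Klf9, named after their values were seen, at -2.23, -1.12, -0.51 and -0.49. Tsc22d3 was not called without KO 6-week replicate 1 or 3 or KO 3-week replicate 3 (highest adjusted p = 0.158), and Klf9 without any one of 10 libraries, among them KO 6-week replicates 1 and 3 and all 3 KO libraries of 3 weeks (highest adjusted p = 0.202). Per1, which glucocorticoids also induce, had a log2 fold change of -0.05 ± 0.16. The receptor gene Nr3c1 had 75.6, 83.8 and 72.1 CPM at 6 weeks and 50.1, 65.3 and 63.4 CPM at 3 weeks (0.37 ± 0.11, adjusted p = 0.0334), and was not called without KO 6-week replicate 1 or 2 or KO 3-week replicate 1 (highest adjusted p = 0.161). Labels give no hormone levels and no time of day, and time of day and age cannot be told apart here. Among members whose change differed, mean levels at 3 weeks were higher in KO than in WT, except for Hif3a (3.0 against 5.76 CPM). They included Fkbp5 at 73.9 against 21.8 CPM, Mt1 at 208 against 79.1 CPM and Mt2 at 51.5 against 7.72 CPM. At 6 weeks Fkbp5 was at 14.7 CPM in KO and 32.4 CPM in WT, and Mt2 at 12.7 and 6.53 CPM. Of 19 p53 target genes, which share Cdkn1a, 1 rose and 2 fell (median -0.023; none rose and 2 fell without KO 6-week replicate 3).

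**Figure D3:**
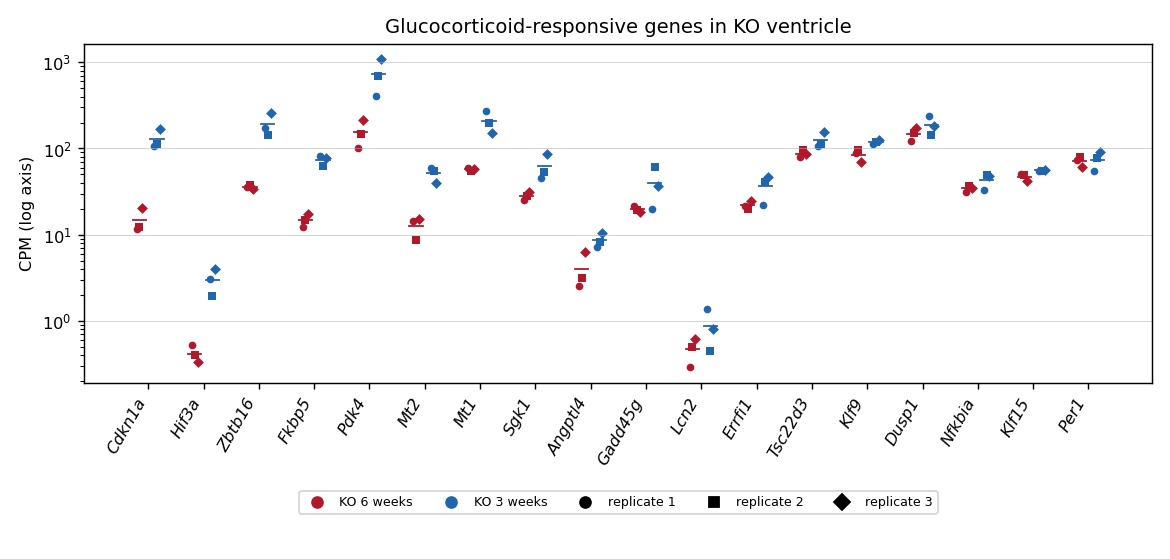
CPM (log axis) of 18 glucocorticoid-responsive genes in KO libraries of 6 weeks (left in each pair, red) and 3 weeks (right, blue), ordered from the most negative log2 fold change (Cdkn1a, -3.14) to the least (Per1, -0.05), with lines at the group means. Red points lie under blue points without overlap in 12 genes, where 15% of all genes tested were lower without overlap.

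Clock genes moved in both directions. Of 20 core clock and output genes 10 rose and 4 fell (median 0.59; 10 rose and 3 fell without KO 6-week replicate 3), with 1 rise and no fall in WT. The change differed from WT for 2 of the 20, Hlf and Nr1d2, and the difference call of Nr1d2 did not hold with every single library left out. The circadian clock is a loop in which Arntl and Clock or Npas2 activate Per, Cry and Nr1d genes, whose products repress them in turn, so that the 2 arms peak at opposite times of day. The labels do not give the time at which hearts were taken, and time of day and age cannot be told apart here.

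Dbp, an output transcription factor, had 149, 186 and 152 CPM at 6 weeks, against 34.2, 10.4 and 8.79 CPM at 3 weeks (3.18 ± 0.53, adjusted p = 0.00191). Per3, a repressor of the loop, had 52, 65.4 and 50.7 CPM at 6 weeks, against 20, 9.35 and 6.22 CPM at 3 weeks (2.23 ± 0.35, adjusted p = 0.000832). Arntl, the activator BMAL1, had 5.99, 2.96 and 8.14 CPM at 6 weeks, against 12.3, 23.2 and 23.3 CPM at 3 weeks (-1.79 ± 0.37, adjusted p = 0.00563). At 3 weeks replicate 1 was the one nearest to the 6-week libraries in all 3 genes.

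Hlf, an output factor related to Dbp, had 26.3, 31.2 and 29.1 CPM at 6 weeks, against 14, 9.97 and 11.4 CPM at 3 weeks (1.29 ± 0.16, adjusted p = 2.88e-05), and its change differed from WT by 1.25 ± 0.23 (adjusted p = 0.00788). Bhlhe41, a repressor, and Nr1d2, the nuclear receptor REV-ERB beta, rose by 1.26 and 0.98 on the log2 scale. Npas2 and Clock, the partners of Arntl, fell by 1.54 and 0.86. Nfil3, a repressor of Dbp targets, had 14.1, 11.2 and 12.2 CPM at 6 weeks and 18.1, 43.6 and 44.8 CPM at 3 weeks (-1.51 ± 0.42, adjusted p = 0.0334), and was not called without KO 6-week replicate 3 (adjusted p = 0.102) or without any of 4 other KO libraries (highest adjusted p = 0.117). The other rises were of Ciart, Tef, Cry2, Nr1d1 and Per2, named after their values were seen, of which Per2 was not called without KO 6-week replicate 2 or KO 3-week replicate 3 (highest adjusted p = 0.0581).

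**Figure D4:**
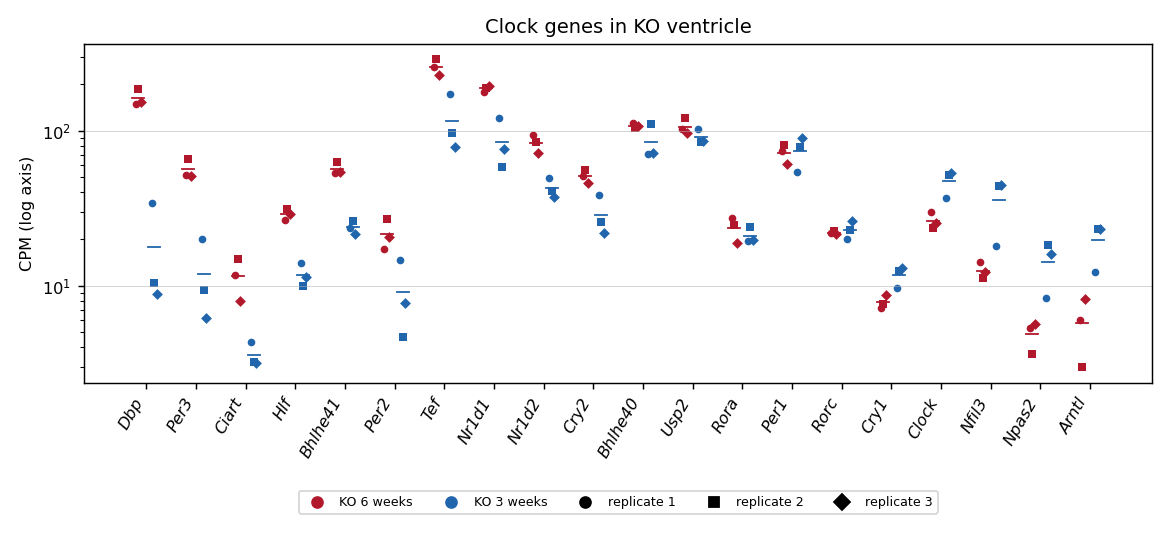
CPM (log axis) of 20 clock genes in KO libraries of 6 weeks (left in each pair, red) and 3 weeks (right, blue), ordered from the highest log2 fold change (Dbp, 3.18) to the lowest (Arntl, -1.79), with lines at the group means. Output and repressor genes stand higher in red on the left, and Arntl, Npas2, Nfil3 and Clock stand lower in red on the right.

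The E-box CACGTG, the site of Arntl and Clock, was found in 3 of the 9 risen clock genes with a window (Bhlhe41, Ciart and Tef), against 11.5% of tested genes with a window, in none of the 4 that fell and in 2 of the 4 with a window that were not called (Cry1 and Per1). The D-box TTATGTAA, the site of Dbp and its relatives, was found in 1 of the 9 (Per3), against 0.747%. The stretch before the start of Ciart, a circadian repressor, is shown because it held 3 E-boxes (minus strand, chr3:95882229-95882378), with CACGTG in capitals.
Ciart: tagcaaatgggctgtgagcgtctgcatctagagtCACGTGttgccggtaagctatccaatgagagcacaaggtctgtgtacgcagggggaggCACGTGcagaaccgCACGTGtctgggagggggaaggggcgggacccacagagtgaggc
Ciart had 11.7, 14.8 and 7.98 CPM at 6 weeks, against 4.33, 3.19 and 3.18 CPM at 3 weeks (1.68 ± 0.31, adjusted p = 0.00115). The spaced string ACANNNTGT, the core of the glucocorticoid response element, lay in 2 of the 9 fallen glucocorticoid-responsive genes with a window (Mt1 and Sgk1), and in 1 of the 7 that were not called (Lcn2), against 5.47%. Such elements can lie far outside these windows.

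Nr4a3 of the immediate early list had the largest decrease by the naming rule. This orphan nuclear receptor is induced rapidly by many stimuli, and it had 1.79, 1.96 and 2.27 CPM at 6 weeks, against 33.8, 95.7 and 94.6 CPM at 3 weeks (-5.21 ± 0.52, adjusted p = 3.61e-05). The 6-week values were alike, and at 3 weeks replicate 1 was the lowest. Of the 25 genes of that list 1 rose and 3 fell (median -0.30; none rose and 3 fell without KO 6-week replicate 3). Klf4, a zinc finger factor, fell by 0.78 on the log2 scale. Arc, an activity-regulated gene best known from neurons, was in no list and stood among the 15 largest increases, with 38.3, 35.3 and 35.4 CPM at 6 weeks, against 6.74, 2.74 and 7.86 CPM at 3 weeks (2.63 ± 0.28, adjusted p = 2.10e-05).

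Of 22 chaperone and unfolded protein response genes 10 fell and none rose (median -0.39; 7 fell without KO 6-week replicate 3), with none in either direction in WT. The change differed from WT for 3 of the 22, all lower in KO. These were Hspa5, Calr and Pdia6, and none of the 3 difference calls held with every single library left out. Hspa5, the chaperone BiP, had 374, 341 and 323 CPM at 6 weeks, against 451, 886 and 734 CPM at 3 weeks (-1.0 ± 0.17, adjusted p = 0.000731). Calr, the calcium-binding chaperone calreticulin, had 258, 255 and 282 CPM at 6 weeks, against 353, 428 and 401 CPM at 3 weeks (-0.57 ± 0.09, adjusted p = 0.000379). Pdia6, a disulphide isomerase, had 112, 108 and 117 CPM at 6 weeks, against 145, 233 and 176 CPM at 3 weeks (-0.72 ± 0.13, adjusted p = 0.000719). The 6-week libraries were tightly grouped and below all 3-week libraries in each, while at 3 weeks replicate 1 lay nearest to them.

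Manf, a secreted stress factor, and Sdf2l1, a cofactor of BiP, fell by 1.19 and 1.21 on the log2 scale, the second named after its value was seen. Among 20 cytosolic heat shock genes Dnajb5, a cofactor of Hsp70 chaperones, fell (-0.71 ± 0.15, adjusted p = 0.00376; difference from WT -1.15 ± 0.21, adjusted p = 0.00818) and none rose, with a median of -0.32 and the same counts without KO 6-week replicate 3.

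The endoplasmic reticulum stress response element, CCAAT followed after 9 bases by CCACG, was searched on both strands of the same windows. It was found in 5 of the 9 fallen members with a window (Calr, Creld2, Hsp90b1, Hspa5 and Pdia6) and in 3 of the 10 members that were not called, against 0.149% of tested genes with a window, or 17 genes. No test was made. The stretches before the start of 3 of the fallen genes are shown with the 5 bases at each end of the element in capitals, since the element lies at a different distance or on the other strand in each. Hspa5 is on the plus strand at chr2:34771940-34772089, Pdia6 on the plus strand at chr12:17266439-17266588 and Hsp90b1, the chaperone GRP94, on the minus strand at chr10:86705445-86705594, where the element reads CGTGG to ATTGG.
Hspa5: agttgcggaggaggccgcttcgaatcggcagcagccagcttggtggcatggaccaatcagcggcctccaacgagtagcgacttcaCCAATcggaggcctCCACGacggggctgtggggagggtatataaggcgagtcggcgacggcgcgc
Pdia6: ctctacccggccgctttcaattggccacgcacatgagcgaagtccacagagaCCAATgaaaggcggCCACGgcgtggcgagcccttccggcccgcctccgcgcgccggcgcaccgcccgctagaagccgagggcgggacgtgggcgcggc
Hsp90b1: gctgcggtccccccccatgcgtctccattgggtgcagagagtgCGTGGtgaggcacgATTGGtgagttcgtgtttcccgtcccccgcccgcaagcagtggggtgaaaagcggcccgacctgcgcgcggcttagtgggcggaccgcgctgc
In the order shown the element began 65, 98 and 107 bases before the start. Hsp90b1, chosen with its value known, had 234, 225 and 199.7 CPM at 6 weeks, against 237, 418 and 394 CPM at 3 weeks (-0.67 ± 0.19, adjusted p = 0.03), and lost its call without any one of the KO libraries except KO 3-week replicate 1 (highest adjusted p = 0.123). Creld2 lost its call without any KO library of 6 weeks or KO 3-week replicate 2 (highest adjusted p = 0.214).

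Matrix genes held both rises and falls in RNA level. Of 22 collagens 8 fell and 1 rose (median -0.27; the same counts without KO 6-week replicate 3), while in WT 14 fell and none rose (median -0.72). By the test of the difference 2 members were higher and 1 lower in KO. Col5a3, a minor fibrillar collagen, had 32.0, 35.3 and 44.9 CPM at 6 weeks, against 111, 99.8 and 119 CPM at 3 weeks (-1.56 ± 0.12, adjusted p = 2.29e-07), and differed from the WT change by -1.08 ± 0.17 (adjusted p = 0.00239). The basement membrane chain Col4a1 had 754, 815 and 871 CPM at 6 weeks, against 1468, 1458 and 1433 CPM at 3 weeks (-0.84 ± 0.14, adjusted p = 0.000409). Both genes separated the ages without overlap, with narrow spreads. Col4a2 and Col6a3 fell by 0.66 and 0.79, and Col4a3, a chain of specialised basement membranes, rose by 0.67 on the log2 scale. The fibrillar chain genes Col1a1 and Col1a2, named after their values were seen, were not called, at -0.25 ± 0.20 and -0.04 ± 0.15.

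Matricellular, elastic and proteoglycan genes held 6 rises and 3 falls among 33 (median 0.079; 4 rises and 5 falls without KO 6-week replicate 3), with no rise and 7 falls in WT. By the test of the difference 5 members were higher and 1 lower in KO. Ccn5, a matricellular protein that lacks the cysteine-knot domain of its family, had 10.2, 12.1 and 20.9 CPM at 6 weeks, against 1.53, 1.29 and 1.22 CPM at 3 weeks (3.41 ± 0.34, adjusted p = 4.75e-06), and differed from WT by 2.75 ± 0.47 (adjusted p = 0.00539). Dcn, the collagen-binding proteoglycan decorin, had 406, 468 and 412 CPM at 6 weeks, against 229.6, 291 and 292 CPM at 3 weeks (0.66 ± 0.12, adjusted p = 0.00107). Thbs4, a thrombospondin of the loaded heart, had 45.7, 30.0 and 36.1 CPM at 6 weeks, against 6.52, 15.6 and 4.40 CPM at 3 weeks (2.09 ± 0.39, adjusted p = 0.00337). In all 3 the lowest library of 6 weeks exceeded the highest of 3 weeks, and Ccn5 was highest in replicate 3. Bgn, the proteoglycan biglycan, rose by 0.79 on the log2 scale.

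The 3 that fell were Fbn2, Tnc and Sparc. Fbn2, the early fibrillin, had 4.15, 3.47 and 3.27 CPM at 6 weeks, against 13.0, 23.4 and 18.2 CPM at 3 weeks (-2.33 ± 0.23, adjusted p = 2.15e-06), and Tnc, tenascin C, fell by 2.31 on the log2 scale. Sparc, a collagen chaperone of the matrix, fell by 0.48 in KO and by 0.76 in WT, and its KO call was lost without KO 6-week replicate 1 (adjusted p = 0.0742). Fibroblast markers, whose sum was higher at 6 weeks as given above, had 3 members higher and 2 lower (median -0.036; 2 higher and 1 lower without KO 6-week replicate 3). They were led by Gsn, the actin-severing protein gelsolin (0.82 ± 0.12, adjusted p = 9.95e-05) and by Dcn, which is also in that marker list. Their part in the matrix result was not tested.

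Of 24 matrix proteases and inhibitors 6 fell and 1 rose (median -0.20; 5 fell and none rose without KO 6-week replicate 3). Adamts4, an aggrecan-cleaving protease, had 0.922, 0.452 and 1.05 CPM at 6 weeks, against 7.66, 17.5 and 14.5 CPM at 3 weeks (-4.03 ± 0.49, adjusted p = 6.19e-05). Adamts9, a protease of the same family, had 9.79, 14.3 and 16.7 CPM at 6 weeks, against 51.5, 80.4 and 102 CPM at 3 weeks (-2.52 ± 0.30, adjusted p = 9.95e-05; difference from WT -2.25 ± 0.41, adjusted p = 0.0153). Timp4, a metalloprotease inhibitor abundant in heart, had 14.6, 17.9 and 17.9 CPM at 6 weeks, against 80.1, 48.0 and 59.3 CPM at 3 weeks (-1.89 ± 0.22, adjusted p = 4.38e-05; difference from WT -2.30 ± 0.31, adjusted p = 0.0014). None of the 3 overlapped between the ages. Mmp14, a membrane-bound collagenase, fell by 0.82 in KO and 0.72 in WT on the log2 scale.

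Among 21 collagen synthesis and cross-linking enzymes 4 rose and 3 fell (median 0.0058; the same counts without KO 6-week replicate 3). P3h2, a prolyl hydroxylase, rose by 1.09 and Adamts14, a procollagen peptidase, fell by 1.82 on the log2 scale, and Serpinh1, the collagen chaperone HSP47, fell by 0.71. Of 22 TGF-beta and BMP ligands and targets 1 rose and 2 fell (median 0.13; 1 rose and 1 fell without KO 6-week replicate 3). Id1, a target of BMP signals, had 23.7, 25.3 and 27.3 CPM at 6 weeks, against 35.8, 43.4 and 60.8 CPM at 3 weeks (-0.88 ± 0.17, adjusted p = 0.00147).

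Among fuel genes, Bdh1, which turns the ketone body beta-hydroxybutyrate into acetoacetate, had the largest increase by the rule used to name genes, with 215, 198 and 233 CPM at 6 weeks, against 11.6, 9.47 and 21.9 CPM at 3 weeks (3.91 ± 0.35, adjusted p = 1.67e-05). Its log2 fold change in WT was 2.5 (adjusted p = 0.00152), and the difference between the changes was not called (1.40 ± 0.46, adjusted p = 0.152). Every 6-week library was far above any 3-week library.

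Of 27 PPAR-responsive lipid genes 9 fell and 1 rose (median -0.27; 8 fell and 1 rose without KO 6-week replicate 3), with 3 rises and no fall in WT. The change differed from WT for 3 members, all lower in KO. Ppargc1a, the mitochondrial coactivator PGC-1 alpha, had 50.3, 45.3 and 36.5 CPM at 6 weeks, against 157, 226 and 128 CPM at 3 weeks (-1.95 ± 0.19, adjusted p = 4.75e-06), a change -1.93 apart from that of WT (adjusted p = 0.00124). Plin4, a lipid droplet coat protein, had 162, 159.8 and 158 CPM at 6 weeks, against 352, 249 and 303 CPM at 3 weeks (-0.91 ± 0.12, adjusted p = 3.12e-05), and rose in WT by 0.45 on the log2 scale, so the 2 changes were of opposite sign (difference -1.37 ± 0.16, adjusted p = 0.000208). The 6-week libraries were the lower ones in both genes. Pparg, a lipid-sensing receptor, and Mgll, a monoglyceride lipase, fell by 0.89 and 0.77. Pdk4, the kinase that shuts pyruvate out of the mitochondrion and a member of the glucocorticoid list as well, had 102, 147 and 214 CPM at 6 weeks, against 409.6, 689.9 and 1079.7 CPM at 3 weeks (-2.23 ± 0.44, adjusted p = 0.00579).

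Nuclear genes of oxidative phosphorylation showed small negative values across the list. Of 48 members 46 had a negative log2 fold change and 33 had lower values at 6 weeks without overlap (15% of all genes did), but 5 fell and none rose by the test, and none was called without KO 6-week replicate 3. The median was -0.21 in KO and 0.32 in WT, where 12 rose and none fell. The test of the difference called 9 members, all lower in KO. Cycs, cytochrome c, had 437, 419.9 and 384 CPM at 6 weeks, against 549, 567 and 634 CPM at 3 weeks (-0.50 ± 0.12, adjusted p = 0.0108), and was not called without KO 6-week replicate 3 (adjusted p = 0.0595) or without KO 3-week replicate 3 (highest adjusted p = 0.0595). The 13 mitochondrially encoded messenger RNAs had no call in either direction, with a median of -0.013, and none without KO 6-week replicate 3.

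Of 34 fatty acid oxidation genes 2 fell and none rose in KO (median -0.0089; 1 fell without KO 6-week replicate 3), with 11 rises and no fall in WT. The change differed from WT for 1 of the 34, lower in KO. Acot1, a thioesterase of fatty acyl-CoA, had 2.13, 3.72 and 2.22 CPM at 6 weeks, against 14.8, 6.39 and 7.86 CPM at 3 weeks (-1.84 ± 0.35, adjusted p = 0.00294). Of 26 citrate cycle and pyruvate entry genes 4 rose and 4 fell (median -0.20; 3 rose and 2 fell without KO 6-week replicate 3). Pcx, pyruvate carboxylase, had 45.0, 44.4 and 53.1 CPM at 6 weeks, against 28.6, 24.2 and 22.8 CPM at 3 weeks (0.91 ± 0.14, adjusted p = 0.000178), and Pdk1, a pyruvate dehydrogenase kinase, and Pdp1, the opposing phosphatase, rose by 0.53 and 0.81. Idh3a, a subunit of isocitrate dehydrogenase, fell by 0.49 on the log2 scale.

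No gene of glycolysis, glucose uptake or glycogen, of 28, was called in KO, where the smallest p was that of Pgk1 (-0.30 ± 0.10, adjusted p = 0.0631), with 6 rises in WT and 1 member whose change differed, lower in KO. The count was also 0 without KO 6-week replicate 3. Of 21 branched-chain amino acid genes Bckdha, a subunit of the branched-chain keto acid dehydrogenase, rose (0.48 ± 0.11, adjusted p = 0.00493) and none fell, with the same counts without that library. Of 16 creatine kinase and nucleotide carrier genes 1 rose and 3 fell, with the same counts without KO 6-week replicate 3. Slc25a5, an adenine nucleotide carrier, and Ampd3, an AMP deaminase, fell by 0.59 and 0.87 on the log2 scale. Ckm, muscle creatine kinase and the one cardiomyocyte marker of 10 that changed, had 1531, 1684 and 1641 CPM at 6 weeks, against 2354, 1941 and 2417 CPM at 3 weeks (-0.47 ± 0.12, adjusted p = 0.011), with a difference from WT of -0.87 ± 0.16 (adjusted p = 0.00894). Ckm was not called without KO 6-week replicate 1 (adjusted p = 0.065) or without KO 3-week replicate 3 (adjusted p = 0.0603).

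Of 21 fatty acid and lipid synthesis genes 3 rose and 5 fell (median -0.29; 2 rose and 4 fell without KO 6-week replicate 3). Lpin1, a phosphatidate phosphatase, fell by 0.64, and Agpat2 and Gpam, acyltransferases of triglyceride synthesis, rose by 0.78 and 0.66 on the log2 scale. Of 22 cholesterol synthesis genes 1 rose and 3 fell, and 1 fell without KO 6-week replicate 3. Hmgcs1, the cytosolic synthase at the entry of that pathway, was at -0.50 ± 0.12 and lost its call without KO 3-week replicate 2 (adjusted p = 0.0577).

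Stress genes downstream of ATF4 were led by a folate enzyme. Of 26 ATF4 and one-carbon stress genes 6 rose and 2 fell (median 0.21; 2 rose and 2 fell without KO 6-week replicate 3). Mthfd2, the mitochondrial folate enzyme and an ATF4 target, had 34.9, 15.2 and 30.0 CPM at 6 weeks, against 8.88, 7.11 and 5.85 CPM at 3 weeks (1.87 ± 0.26, adjusted p = 0.000135). It was above every 3-week value in each 6-week library, lowest in replicate 2. In WT its log2 fold change was -0.86 (adjusted p = 0.0808), and the difference was 2.73 ± 0.38 (adjusted p = 0.0014). Ddit4, an mTOR inhibitor induced by stress and by glucocorticoids, fell by 1.38, and Gdf15, a stress cytokine, had 14.1, 10.9 and 22.1 CPM at 6 weeks and 6.48, 7.73 and 4.82 CPM at 3 weeks (1.31 ± 0.32, adjusted p = 0.0139) but was not called without KO 6-week replicate 3 (adjusted p = 0.0719) or without KO 3-week replicate 3 (highest adjusted p = 0.0721).

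Of 26 autophagy and lysosome genes 8 rose and none fell (median 0.21; 2 rose without KO 6-week replicate 3), with 5 rises in WT and no member whose change differed. Ctsd, the lysosomal protease cathepsin D, had 593, 537 and 653 CPM at 6 weeks, against 371, 351 and 386 CPM at 3 weeks (0.69 ± 0.10, adjusted p = 0.000171). Ctsk, cathepsin K, rose by 0.82 on the log2 scale. Of 26 antioxidant enzymes 5 rose and none fell (median 0.11; 4 rose without KO 6-week replicate 3), with 7 rises in WT and no member whose change differed. Gpx3, the secreted glutathione peroxidase, had 564, 425 and 665 CPM at 6 weeks, against 194, 249 and 201 CPM at 3 weeks (1.36 ± 0.19, adjusted p = 0.000134), and Cat, catalase, had 171, 165 and 163 CPM at 6 weeks, against 105, 98.1 and 106 CPM at 3 weeks (0.69 ± 0.09, adjusted p = 3.47e-05). Neither overlapped between the ages.

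Of 53 cytosolic ribosomal proteins 3 fell and none rose (median -0.15; 2 fell without KO 6-week replicate 3), among them Rps2 (-0.55 ± 0.10, adjusted p = 0.000893; difference from WT -0.77 ± 0.14, adjusted p = 0.00742), and genes of this family share sequence with many processed copies. Of 39 mitochondrial ribosomal proteins 4 fell and none rose (median -0.14), and none was called without KO 6-week replicate 3. Of 14 myostatin and muscle ubiquitin ligase genes 2 rose and 1 fell, with the same counts without that library. Trim54 and Trim55, related muscle ring finger proteins, moved apart, by 0.71 and -0.81 on the log2 scale (adjusted p = 0.000908 and 3.11e-05).

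Of 17 MHC and antigen processing genes 10 rose and none fell, and all 17 had a positive log2 fold change (median 0.63; 8 rose without KO 6-week replicate 3), while 3 rose in WT (median 0.27) and the change of 1 was higher in KO by the test of the difference. H2-Ab1, a class II chain, had 60.8, 88.9 and 93.2 CPM at 6 weeks, against 22.9, 33.8 and 42.8 CPM at 3 weeks (1.29 ± 0.20, adjusted p = 0.000309), with 1.21 in WT. H2-K1, a class I heavy chain, had 177, 214 and 202 CPM at 6 weeks, against 90.2, 138 and 127 CPM at 3 weeks (0.74 ± 0.13, adjusted p = 0.000666), with 0.22 in WT. In both, replicate 1 was the lowest library at either age and the ages did not overlap. H2-Eb1 and Cd74, another class II chain and the invariant chain, rose by 1.31 and 1.05 on the log2 scale. MHC genes, those of class I above all, share sequence with related genes, so reads may be split among them.

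Of 26 complement and chemokine genes 6 rose and none fell (median 0.61; 5 rose without KO 6-week replicate 3), with no rise and 1 fall in WT. The change of 2 members was higher in KO by the test of the difference. Serping1, the C1 inhibitor, had 62.9, 78.3 and 72.7 CPM at 6 weeks, against 38.6, 37.8 and 45.7 CPM at 3 weeks (0.81 ± 0.10, adjusted p = 3.61e-05). C4b, complement C4, had 18, 15.7 and 28.2 CPM at 6 weeks, against 5.56, 4.87 and 6.59 CPM at 3 weeks (1.86 ± 0.39, adjusted p = 0.00621). C1ra, the protease of the C1 complex, and Cx3cl1, the chemokine fractalkine, rose by 1.07 and 1.46. Interferon-induced genes gave 1 rise and 3 falls of 31 (median 0.066), none of which was called without KO 6-week replicate 3.

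Among immune cell markers, macrophage genes held falls and B cell genes held rises by the test, and the other lists had no call. The part of immune cells in the rises above was not tested. Of 16 macrophage markers 3 fell and none rose (the same counts without KO 6-week replicate 3), with a summed level of 299 to 360 CPM at 6 weeks and 372.5 to 399.5 CPM at 3 weeks. The 3 included Cd163 (7.20, 8.04 and 8.42 CPM at 6 weeks, against 21.4, 15.6 and 19.3 CPM at 3 weeks; -1.25 ± 0.27, adjusted p = 0.00666) and Lyve1 (-1.53 ± 0.35, adjusted p = 0.00973). The third, Mrc1, was not called without KO 6-week replicate 1 (adjusted p = 0.059). All 3 are genes of resident macrophages, but other such genes in the list were not called. Some uncalled members had higher and some lower values at 6 weeks, and the median log2 fold change of the list was -0.11. Of 8 B cell markers tested 2 immunoglobulin genes rose, Ighm and Igkc, with summed levels of all 8 of 10.9 to 29.4 CPM at 6 weeks and 7.73 to 10.9 CPM at 3 weeks, and neither was called without KO 6-week replicate 3 (adjusted p = 0.0544 and 0.188). Only Cd4 of 14 T and NK cell markers passed the filter on low counts, at 0.518 to 1.22 CPM at 6 weeks and 0.896 to 1.5 CPM at 3 weeks. Of 5 neutrophil and mast cell markers tested none was called.

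Among vessel and other cell types, endothelial markers had the most calls. Of 14 endothelial markers 6 fell and none rose (3 fell without KO 6-week replicate 3), led by Esam, an endothelial adhesion molecule (44, 56.4 and 51.8 CPM at 6 weeks, against 70.5, 69.1 and 90.3 CPM at 3 weeks; -0.59 ± 0.12, adjusted p = 0.00191), and Cldn5, the tight junction protein claudin 5 (-1.18 ± 0.25, adjusted p = 0.00545). Of 14 mural cell markers 1 rose and 1 fell (1 fell without KO 6-week replicate 3), and Acta2, smooth muscle actin, had 75.4, 90.9 and 73.1 CPM at 6 weeks, against 492, 269.6 and 439 CPM at 3 weeks (-2.33 ± 0.24, adjusted p = 2.38e-05), while its change in WT was -1.04. Acta2 is also made by activated fibroblasts and by immature heart muscle. The anion exchanger gene Slc4a1 fell among 6 red cell markers (-2.27 ± 0.38, adjusted p = 0.000501). Of 9 Schwann cell and nerve markers 2 fell (1 without KO 6-week replicate 3), among them Dbh, the noradrenaline-making enzyme of sympathetic nerves (0.634, 1.56 and 0.831 CPM at 6 weeks, against 2.36, 2.74 and 3.69 CPM at 3 weeks; -1.52 ± 0.30, adjusted p = 0.00174). Of 11 epicardial and mesothelial markers 1 rose and 2 fell (1 rose and 1 fell without KO 6-week replicate 3), none of which kept its call with every single library left out. Of 11 atrial markers Nppa alone was called, of 10 conduction markers 2 fell, both with and without KO 6-week replicate 3, of 5 skeletal muscle markers tested Ckm alone was called, and of 6 adipocyte markers tested none was called.

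Hormone and transcription factor genes included several that differed from WT. Of 31 adrenergic, muscarinic and endothelin signalling genes 3 rose and 3 fell (median -0.049; 2 rose and 3 fell without KO 6-week replicate 3). Agt, the angiotensin precursor, had 1.27, 0.954 and 2.60 CPM at 6 weeks, against 15.4, 4.71 and 5.85 CPM at 3 weeks (-2.44 ± 0.42, adjusted p = 0.000889), and differed from WT by -3.20 ± 0.58 (adjusted p = 0.00941). Ace, the enzyme that makes angiotensin II, had 156, 159.7 and 181 CPM at 6 weeks, against 88.2, 109.5 and 74.7 CPM at 3 weeks (0.87 ± 0.15, adjusted p = 0.000493), and differed from WT by 1.08 ± 0.21 (adjusted p = 0.00941). The precursor and the enzyme thus moved in opposite directions, with no overlap between ages in either. Grk5, a receptor kinase, rose by 0.80, and Rgs2, a regulator of G protein signals, and Adra1b, an alpha-1 adrenergic receptor, fell by 0.96 and 0.60.

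Among 26 cardiac transcription factors 1 rose and 4 fell (median -0.013; none rose and 4 fell without KO 6-week replicate 3). Hand2, a factor of right ventricle development, had 56.1, 53.8 and 59.7 CPM at 6 weeks, against 72.7, 95.8 and 106 CPM at 3 weeks (-0.70 ± 0.13, adjusted p = 0.00129), and Srf, the serum response factor, fell by 0.44 on the log2 scale. Of 20 hypoxia-induced genes 2 rose and 3 fell (median -0.058; 2 rose and 2 fell without KO 6-week replicate 3). P4ha1, a collagen prolyl hydroxylase induced by hypoxia, rose by 0.59. Vegfa, the vascular growth factor, had 325, 348 and 293 CPM at 6 weeks, against 406, 489 and 439 CPM at 3 weeks (-0.47 ± 0.11, adjusted p = 0.0101), and lost its call without KO 6-week replicate 3 (adjusted p = 0.0637).

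The remaining large increases were of genes outside these lists. Cpxm2, a carboxypeptidase-like matrix protein, had 48.1, 42.0 and 37.2 CPM at 6 weeks, against 4.81, 2.86 and 4.68 CPM at 3 weeks (3.35 ± 0.31, adjusted p = 1.08e-05), and its change in WT was 3.13. Psca, a small cell surface antigen, had 20.6, 5.68 and 9.86 CPM at 6 weeks, against 1.62, 1.06 and 0.935 CPM at 3 weeks (3.29 ± 0.44, adjusted p = 0.000168). Ryr3, a calcium release channel, had 11.3, 5.27 and 7.37 CPM at 6 weeks, against 0.744, 1.74 and 0.842 CPM at 3 weeks (2.88 ± 0.58, adjusted p = 0.00494). Replicate 1 was the highest at 6 weeks in all 3. Apod, the lipid carrier apolipoprotein D, rose by 2.70. Rbp4, Lrrc8e and Slc13a4 were also among the 15 largest increases, at 2.61, 2.35 and 2.32 on the log2 scale, and each lost its call without at least 1 KO library (highest adjusted p = 0.0549, 0.0507 and 0.0539).

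Of other genes with a called difference between KO and WT, Itgbl1, an integrin beta-like protein, had 40.4, 38.2 and 44.4 CPM at 6 weeks, against 7.53, 12.5 and 9.49 CPM at 3 weeks (2.06 ± 0.19, adjusted p = 8.10e-07). Its change in WT was 0.08, and the difference was 1.98 ± 0.27 (adjusted p = 0.000889). The difference calls of Lamc3, Pamr1, Ogdhl and Fam124b, described next, did not hold with every single library left out. Lamc3, a laminin chain, had 9.39, 10.3 and 12.8 CPM at 6 weeks, against 3.02, 3.19 and 2.95 CPM at 3 weeks (1.83 ± 0.26, adjusted p = 9.95e-05). Both stood above all 3-week libraries in each 6-week library. Pamr1, a secreted peptidase-like protein, rose by 1.91. Ogdhl, a brain-type relative of a citrate cycle enzyme, did not change by the test in KO (-0.74 ± 0.47, adjusted p = 0.35) but rose in WT by 2.32 on the log2 scale (adjusted p = 0.00399). Fam124b, also among the 15 largest decreases, had 0, 0.452 and 0.111 CPM at 6 weeks, against 1.05, 2.30 and 3.88 CPM at 3 weeks (-3.57 ± 0.64, adjusted p = 0.000968). In all, 1668 genes were called, reached 2 CPM on average in the group with the higher level and did not overlap between the ages. Of these, 782 were higher, 886 lower and 69 were predicted loci, which are not named.

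**Figure D5:**
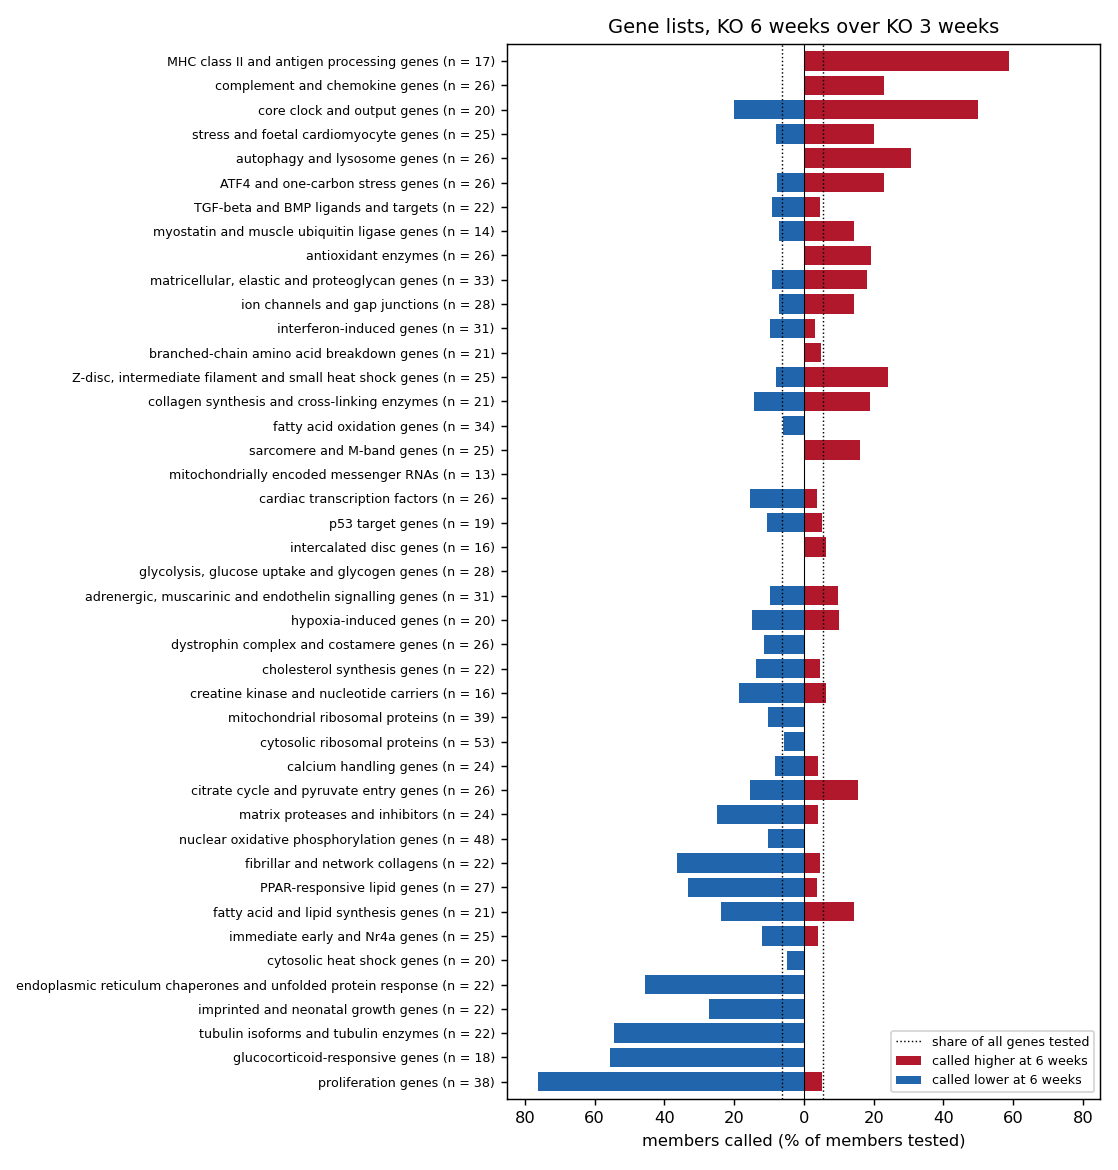
Share of tested members called higher (right, red) and lower (left, blue) at 6 against 3 weeks in KO for 43 gene lists, ordered by median log2 fold change from the highest at the top. Dotted lines mark the 5.34% of all genes called higher and the 6.25% called lower; MHC genes reach the furthest right, and proliferation, glucocorticoid-responsive and tubulin genes the furthest left.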

How the data were processed

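Ventricular RNA was extracted with a Qiagen RNeasy Plus Universal Mini kit and made into libraries with NEBNext Ultra II RNA, per the labels' protocols. The authors deposited raw counts per gene. Trimmomatic 0.36, STAR 2.5.2b, featureCounts of Subread 1.5.2 and the build GRCm38 are named in the submitters' processing notes. The annotation release, strand setting and handling of multiply mapped reads are not given in the sources used here, so overlapping and antisense genes cannot be told apart.

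Of 49315 gene IDs, 49056 matched GENCODE M21, which gave the symbols. Groups follow genotype and age in the labels. One edgeR 4.0.16 quasi-likelihood fit (R 4.3.3, TMM, robust, filterByExpr with a minimum count of 10) covered all 18 libraries with a mean for each of the 6 groups. It gave the change in KO (6 minus 3 weeks), in WT, and their difference, with Benjamini-Hochberg adjusted p over the 15778 genes tested and calls under 0.05. Adjusted p-values and fold changes ± SE come from that fit, except where a library is said to be left out, and SE is the size of the log2 fold change over the square root of F. DESeq2 1.42.0 and limma 3.58.1 served as alternatives, beside other scalings and filters, a replicate block and omitted libraries. The scripts were tested on simulated data. No 2 libraries of a group agreed within sampling noise (chi-square over degrees of freedom of 7.04 or more). Precision thus rests on the spread between the libraries of a group as well as on the 16778954 to 21397675 counts per KO library.

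The 58 lists held 1289 entries, of which 1227 passed the filter. A member that passed only through the group where it is high had to differ, so list counts describe only the members tested. Members and lists were chosen with earlier results of these data known. Genes named are the 15 largest changes in each direction among called genes that did not overlap and reached 2 CPM on average in the higher group, the 8 largest differences between KO and WT in each direction, and up to 4 called members per list and direction by smallest p, or the member with the smallest p where none was called. Of 231 genes that met this rule, 158 are named here. Another 27 were chosen after their values were seen.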

Additional observations from a re-analysis of the deposited data

Results flagged for a closer look

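The age change differed between KO and WT in 251 genes by edgeR's quasi-likelihood test of the difference (adjusted p under 0.05), and 52 of them are named in the report. Each value in this section is the log2 fold change of 6 over 3 weeks in KO minus that in WT.

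Of the 52, 24 kept this call with each of the 12 libraries of 3 and 6 weeks left out in turn. Without both replicates 3, 3 of these 24 were not called: Ace (adjusted p = 0.0704), Ckm (adjusted p = 0.0628) and Dnajb5 (adjusted p = 0.0522). The matrix protein gene Ccn5 and the folate enzyme gene Mthfd2 stood at the upper end of the 6 that were higher in KO: Ccn5 (2.75), Mthfd2 (2.73), Itgbl1 (1.98), Tpm2 (1.34), Hlf (1.25) and Ace (1.08). The angiotensin precursor gene Agt and the glucocorticoid-responsive genes Fkbp5, Hif3a and Zbtb16 stood at the lower end of the 18 that were lower in KO: Agt (-3.20), Fkbp5 (-2.90), Hif3a (-2.77), Zbtb16 (-2.67), Cdkn1a (-2.44), Timp4 (-2.30), Adamts9 (-2.25), Mt1 (-2.19), Kcne1 (-2.10), Ppargc1a (-1.93), Mt2 (-1.78), Plin4 (-1.37), Dnajb5 (-1.15), Col5a3 (-1.08), Fhl2 (-0.97), Tuba4a (-0.94), Ckm (-0.87) and Rps2 (-0.77).

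The other 28 lost the call without at least 1 library. They were Lamc3 (2.07), Pamr1 (1.98), Kcnj14 (1.80), Arc (1.75), Nr1d2 (1.05), Gja1 (1.0), Bgn (0.98), Col4a3 (0.89), Dcn (0.81) and Serping1 (0.66) among genes higher in KO, and Nr4a3 (-4.25), Fam124b (-3.54), Adamts4 (-3.37), Ogdhl (-3.06), Dbh (-1.79), Adamts14 (-1.60), Kcna5 (-1.37), Fbn2 (-1.36), Hspa5 (-1.15), Mcm2 (-1.12), Id1 (-1.12), Hand2 (-0.93), Pdia6 (-0.81), Klf15 (-0.74), Trim55 (-0.69), Srf (-0.64), Calr (-0.63) and Slc25a5 (-0.60) among genes lower in KO. Without WT 6-week replicate 3 the call was lost in 26 of them, without WT 6-week replicate 1 in 20, without KO 6-week replicates 1, 2 and 3 in 17, 19 and 16, and without KO 3-week replicates 1, 2 and 3 in 7, 3 and 13. Without WT 3-week replicates 1, 2 and 3 it was lost in 13, 15 and 4, and without WT 6-week replicate 2 in 6. Their highest adjusted p in these fits ran from 0.0542 for Hand2 to 0.133 for Klf15.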

How the results depend on the processing

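In KO, 1829 genes were called. The count was 933 in the fit of the 6 KO libraries alone with the replicate number as a block, 819 without both replicates 3, which are rich in atrial transcripts, and 593 for changes of over 2-fold. With single libraries left out it ran between 1089, without KO 6-week replicate 1, and 1806, without WT 3-week replicate 3. It was 1185 without KO 6-week replicate 3 and 1195 without KO 3-week replicate 3. In WT, 818 genes were called, against 1404 without a low count filter, 1300 by DESeq2 and 199 (without WT 3-week replicate 2) to 1313 (without WT 3-week replicate 3) with single libraries left out. The difference between KO and WT was called for 251 genes, against 880 without a filter (315 higher and 565 lower in KO), 642 by DESeq2, 82 without both replicates 3, and 84 (without WT 6-week replicate 3) to 426 (without WT 3-week replicate 3) with single libraries left out. The 58 gene lists held 280 different called genes, and 170 without both replicates 3.

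The labels do not say whether KO libraries with the same replicate number belong together. Deviations from the group means of same-numbered KO libraries correlated at -0.083, -0.0351 and 0.0761, and those of differently numbered ones at -0.135 to 0.177. With so few libraries these values cannot show whether a litter or batch was shared. With the number as a block in the fit of 18 libraries, 1768 genes were called in KO, 849 in WT and 288 for the difference.

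The sign changed in 4 results. The log2 fold change of Csrp3 ran from -0.0517, without KO 3-week replicate 1, to 0.62 over the single omissions, that of Nppb from -0.19 to 0.45, that of Col1a2 from -0.18 to 0.10 and that of Per1 from -0.23 to 0.11, and Per1 was at 0.22 without both replicates 3. None of the 4 was called with all libraries. Of 236 gene results, 233 of the 235 that could be fitted kept direction and side of the threshold under DESeq2, 227 under limma voom, 236 with library sizes that leave out mitochondrially encoded genes and 204 without KO 6-week replicate 3. Without both replicates 3, 168 of the 236 did so. The cause of these differences was not tested. With 3 libraries a group, leaving 1 out leaves 2, so part of the lost calls comes with fewer samples.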
